A study of Mus musculus with 10 samples.

Results

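The 57 genes described here encode Rab GTPases, the small GTP-binding proteins that give each membrane compartment of a cell its identity and direct traffic between compartments. They were taken from arrays of regulatory T (Treg) cells as all genes whose symbol is Rab followed by a number and, at most, a letter and a digit, with Rab15, which lies next to Fntb among RefSeq genes, left out. Only probe sets for which GEO's platform annotation gave 1 gene symbol counted, and a gene with several was represented by the brightest of them. The members are 57 of the 22180 genes measured in this way. Rab4b, whose probe sets all name further genes, is not among them.

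The study compared Treg cells that lack Fntb with Treg cells that keep it, in 5 arrays of each. The Fntb KO samples are CD4+ YFP+ cells that were sorted from the spleen and the pLN of chimeras labelled Foxp3CreFntbfl/fl. The WT samples are cells of the same sort from WT chimeras. Cre under the control of Foxp3, the lineage factor of Treg cells, removes the floxed Fntb gene in cells that express Foxp3, and Fntb encodes the beta subunit of protein farnesyltransferase. The labels do not give the age of the mice, the alleles that the WT chimeras carry besides being YFP+, or whether each sample is a mouse of its own. The p-values therefore rest on the spread between the arrays, part or all of which may be technical.

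A Rab protein cycles between a GDP-bound form, which a guanine nucleotide dissociation inhibitor keeps in the cytosol, and a GTP-bound form on a membrane, where it recruits effectors. Exchange factors (GEFs) load GTP and GTPase-activating proteins (GAPs) end the active state. Membrane attachment needs a prenyl lipid at the C-terminus. Most Rabs receive geranylgeranyl groups from Rab geranylgeranyl transferase with the help of a Rab escort protein, not a farnesyl group from the enzyme that contains Fntb. Rab28 is known as a farnesylated member. In T cells, Rabs are known to steer recycling of the antigen receptor, delivery of CTLA-4 to the surface and docking of secretory granules. The arrays measured transcripts, so they carry no information on prenylation or membrane attachment of the proteins.

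The targeted gene was lower in each Fntb KO array. Fntb read 5.49, 5.31, 5.41, 5.55 and 5.62 in the Fntb KO arrays 1 to 5, against 6.35, 5.99, 5.98, 6.09 and 6.20 in the WT arrays 1 to 5 (log2 of the normalized signal). The difference, Fntb KO minus WT, was -0.65 (SE 0.0963, limma adjusted p = 0.00442, exact two-sided permutation p = 0.00794, the smallest that 5 against 5 arrays allow). Markers of the labelled cell type were present: Foxp3 averaged 10.53 in Fntb KO and 10.67 in WT, and Cd4 averaged 9.29 and 9.36 in the same order. None of the 5 Treg markers passed, but their median difference was -0.23. Ikzf2, Ctla4, Tnfrsf18 and Foxp3 differed by -0.41, -0.39, -0.23 and -0.14, and Il2ra by 0.047. The groups of Foxp3 and Ctla4 did not overlap, as for 2.67% of all genes. The 8 T cell markers, of which none passed, had a median difference of -0.12. Of 43 markers of other cell types, 1 passed the test, Nkg7, a gene of cytotoxic cells, which was lower in Fntb KO. Above the level that dim genes reach lay 18 of the 43. The neutrophil genes S100a8 and S100a9 differed by 1.05 and 0.66 without passing (limma adjusted p = 0.321 and 0.546). Their highest Fntb KO arrays read 6.25 and 6.35, against 3.98 and 5.01 for the highest WT arrays. The median difference of the 7 neutrophil markers was 0.049, but only 3 of them lay above the level that dim genes reach. Sort purity was not tested. Array medians ran from 4.09 to 4.25. Fntb KO 1, Fntb KO 2 and WT 2 had the lowest medians and the highest levels of mitochondrial ribosomal protein genes, and they are called the low-median arrays below. Array numbers follow the order of the samples in the series within each genotype. The low-median arrays are consecutive samples of the series, and no label names a batch.

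No Rab gene passed the test between Fntb KO and WT Treg cells. Of 57 members 0 rose and 0 fell, where 1.11% of all genes tested passed (limma, Benjamini-Hochberg adjusted p under 0.05 over all genes). The lowest adjusted p among the members was 0.151. At an unadjusted p under 0.05 there were 8 members (14.0% of them), 5 lower and 3 higher in Fntb KO, beside 9.26% of all genes. How these shares depend on signal is given below.

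The differences of the Rab genes were small. They ran from -0.41 (Rab35) to 0.35 (Rab25 and Rab3b) on the log2 scale, with a median of -0.032 over the members and 0.0074 over all genes. In 46 of the 57 members (80.7%) the difference was under 0.2 in size, as in 83.9% of all genes. The 95% interval of the difference came from the same fit, for each gene alone. It stayed within a 2-fold change in either direction for all 57 members, as for 99.0% of all genes. Within a 1.5-fold change it stayed for 50 (87.7%, against 91.9% of all genes). The members whose interval reached past 1.5-fold were Rab35, Rab19, Rab32, Rab39b and Rab6b on the lower side and Rab25 and Rab28 on the higher side. Rab6b differed by -0.18 at the probe set used and by 0.019 at its other probe set.

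**Figure D1:**
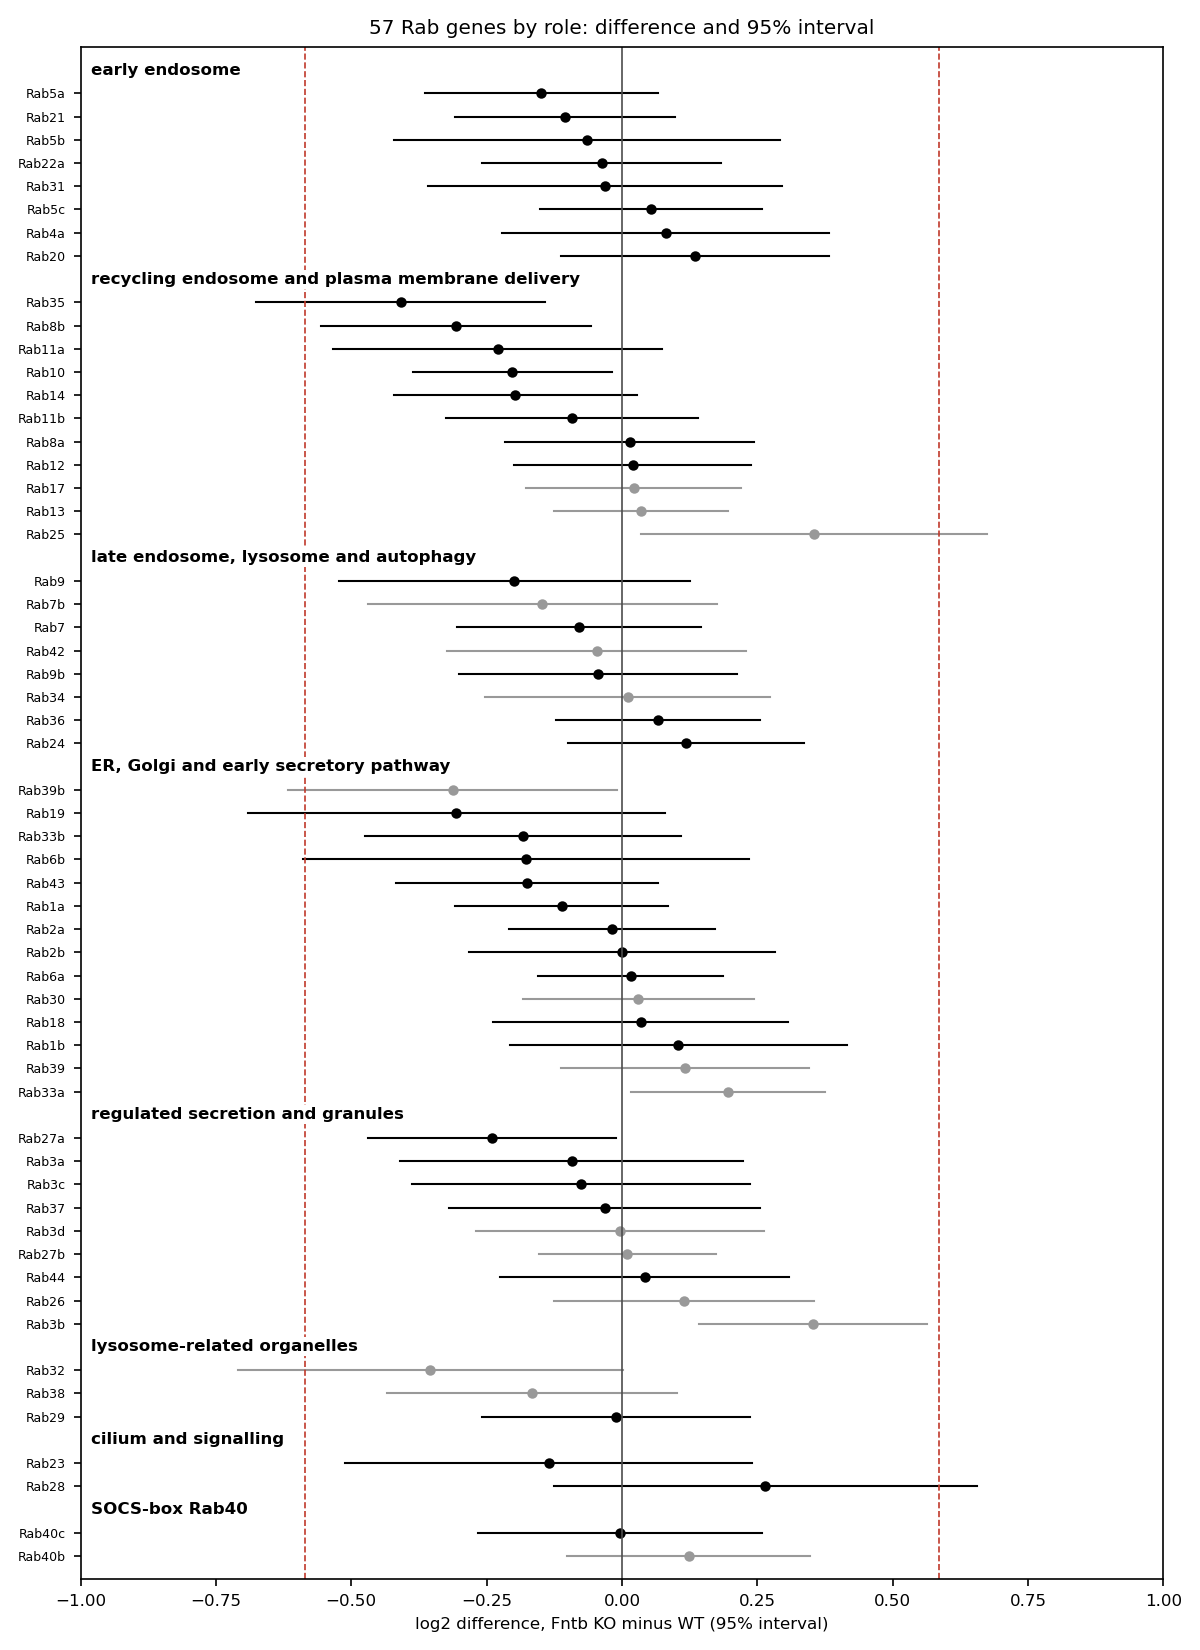
Log2 difference (Fntb KO minus WT) of each of the 57 Rab genes, in blocks by role, with its 95% interval from the fit over 5 arrays a group. Black marks members above the dim-gene guide and grey those at or below it; the dashed lines stand at a 1.5-fold change in either direction, which 50 of the 57 intervals do not cross.

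How far a member can be read depends on its signal. The 1105 olfactory receptor genes, which T cells are not known to use, served as a guide to dim probe sets, and 95% of them lay below a mean level of 4.19. Above that guide were 40 Rab genes, and 17 were at or below it, Rab13, Rab17, Rab25, Rab27b, Rab32 and Rab34 among them; folds of such genes can understate a true change. Of the 40 members above the guide 28 had a negative difference (70.0%), against 53.0% of all genes above the guide, with medians of -0.055 and -0.010. An unadjusted limma p under 0.05 was found for 4 of these 40 (10.0%), beside 13.0% of all genes above the guide. All 4 were lower in Fntb KO. Among the 17 dimmer members it was found for 4 (23.5%), 1 lower and 3 higher, beside 5.54% of all genes at or below the guide. Levels of different probe sets are not comparable with each other, because each probe responds differently to its transcript.

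**Figure D2:**
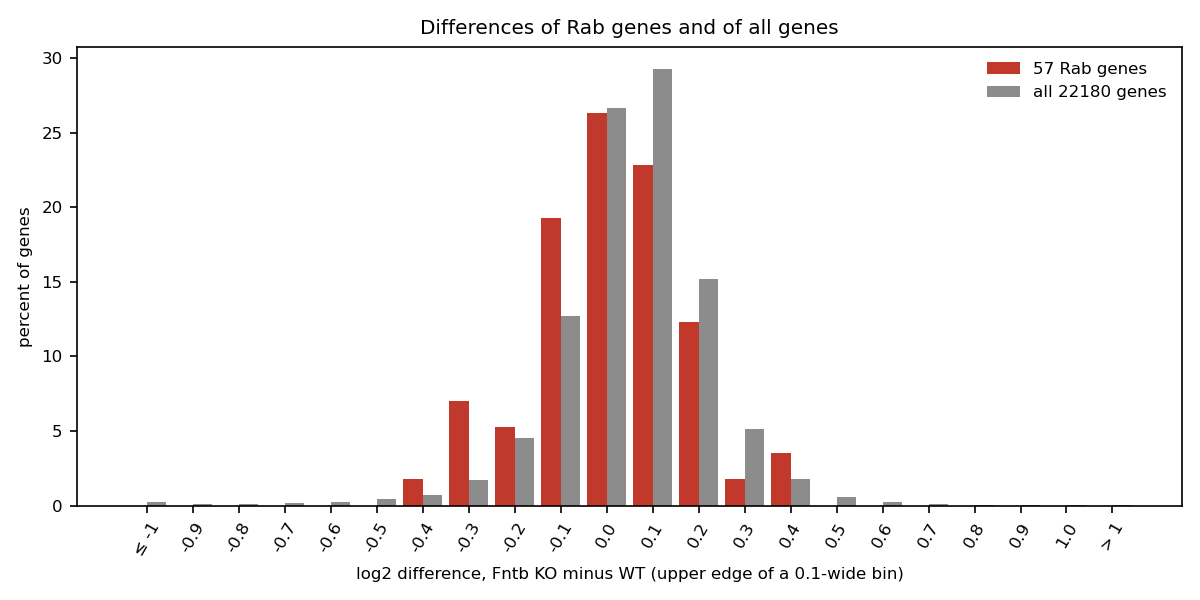
Percent of the 57 Rab genes (red, left bar of each pair) and of all 22180 genes (grey) in bins of the log2 difference, Fntb KO minus WT, each bin 0.1 wide and labelled by its upper edge. No Rab gene lies below -0.41 or above 0.35, while the tails of all genes run past -1 and 1.

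Rab genes of early endosomes spanned the narrowest range of differences among the 5 role groups with 8 or more members. The 8 members were Rab4a, Rab5a, Rab5b, Rab5c, Rab20, Rab21, Rab22a and Rab31, with differences of -0.15 to 0.14, and each interval stayed within 1.5-fold. The 3 Rab5 genes encode the GTPase that drives fusion of early endosomes. Rab5a read 7.34, 7.08, 7.45, 7.50 and 7.59 in the Fntb KO arrays 1 to 5, against 7.50, 7.49, 7.63, 7.46 and 7.62 in the WT arrays 1 to 5, a difference of -0.15 (95% interval -0.36 to 0.066, limma adjusted p = 0.730). It was -0.071 without Fntb KO 2, its lowest array, and -0.040 without the low-median arrays. Rab5c averaged 7.93 ± 0.11 in the Fntb KO arrays and 7.88 ± 0.16 in the WT arrays (SD, n = 5 each), a difference of 0.054 with an interval of -0.15 to 0.26. The groups of both genes overlapped. Rab4a, which returns receptors from early endosomes to the surface, averaged 6.17 ± 0.26 in the Fntb KO arrays and 6.09 ± 0.25 in the WT arrays, a difference of 0.081 that was -0.10 without the low-median arrays. Rab20, which acts at endosomes and phagosomes, differed by 0.14.

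Among the 11 genes of recycling endosomes and delivery to the plasma membrane, differences ran from -0.41 to 0.35 around a median of -0.093. This group held 4 of the 8 members with an unadjusted p under 0.05: Rab35, Rab8b and Rab10, lower in Fntb KO, and Rab25, higher. They were 36.4% of its genes, beside 9.26% of all genes and 13.0% of all genes above the guide. Above the guide lay 8 of its 11 genes, but not Rab25. The share was the highest among the role groups, some of which hold only 2 or 3 genes, and 0 of the 11 genes passed. Whether the group holds more such genes than others was not tested. Rab35 returns endocytosed receptors to the plasma membrane and is known to act in recycling of the T cell receptor to the immunological synapse. It read 6.72, 6.81, 6.52, 6.55 and 6.29 in the Fntb KO arrays 1 to 5, against 6.93, 7.29, 7.05, 7.00 and 6.67 in the WT arrays 1 to 5. The highest Fntb KO arrays, 1 and 2, exceeded only WT 5, so that 4 of the 5 WT arrays lay above every Fntb KO array. The difference was -0.41 (SE 0.124, 95% interval -0.68 to -0.14, limma adjusted p = 0.207). With a block for the low-median arrays it was -0.48 and passed (limma adjusted p = 0.0217), and without them it was -0.46 and did not (adjusted p = 0.145). Over the 19 alternatives run, some of which could not move it, it stayed between -0.49 and -0.33.

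Rab8a and Rab8b encode close relatives that carry vesicles to the plasma membrane, and Rab8 is known to act in surface delivery of CTLA-4. Rab8b read 8.69, 9.08, 8.74, 9.26 and 8.87 in the Fntb KO arrays 1 to 5, against 9.07, 9.40, 9.24, 9.16 and 9.30 in the WT arrays 1 to 5. Fntb KO 4 lay within the WT range and Fntb KO 2 just above its lowest array, while the other 3 Fntb KO arrays were below all WT arrays. The difference of Rab8b was -0.31 (95% interval -0.56 to -0.057, limma adjusted p = 0.380). Rab8a averaged 8.82 ± 0.21 in the Fntb KO arrays and 8.80 ± 0.12 in the WT arrays (SD, n = 5 each), a difference of 0.014 with an interval of -0.22 to 0.24. Its sign turned under several alternatives, and its other probe set differed by -0.081. Whether the 2 genes differ in their response was not tested.

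Rab10, which directs exocytic vesicles such as those with glucose transporters, averaged 8.82 ± 0.08 in the Fntb KO arrays and 9.02 ± 0.13 in the WT arrays (SD, n = 5 each). Its difference was -0.20 (95% interval -0.39 to -0.019, limma adjusted p = 0.462). Rab11a, the GTPase that defines the recycling endosome, read 7.65, 8.02, 7.27, 7.70 and 7.86 in the Fntb KO arrays 1 to 5, against 7.65, 8.10, 8.12, 8.05 and 7.73 in the WT arrays 1 to 5. The groups overlapped widely, and Fntb KO 3 was the lowest array of all. The difference was -0.23 (95% interval -0.53 to 0.074, adjusted p = 0.692), and -0.12 without Fntb KO 3. Rab11b had 3 probe sets, which did not point one way: they differed by -0.093 (the one used), -0.075 and 0.39, and 0 of them passed when every probe set was tested. Rab25, a relative of Rab11 known from epithelial cells, averaged 4.30 ± 0.15 in the Fntb KO arrays and 3.94 ± 0.35 in the WT arrays, around the guide level; its difference of 0.35 had a limma adjusted p of 0.460. Rab12, Rab13, Rab14 and Rab17 complete the group.

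The 8 genes of late endosomes, lysosomes and autophagy differed by -0.20 to 0.12, each with an interval within 1.5-fold. Rab7, which governs maturation of late endosomes and their fusion with lysosomes, averaged 9.66 ± 0.17 in the Fntb KO arrays and 9.74 ± 0.16 in the WT arrays (SD, n = 5 each). Its difference was -0.079 (95% interval -0.30 to 0.15). Rab24, linked to autophagosome clearance, differed by 0.12 and Rab36 by 0.067. Rab9, which returns mannose 6-phosphate receptors from late endosomes to the Golgi and is named after its values were seen, read 6.35, 6.40, 5.58, 5.86 and 5.79 in the Fntb KO arrays 1 to 5, against 6.04, 6.27, 6.22, 6.05 and 6.38 in the WT arrays 1 to 5. Fntb KO 1 and 2, both low-median arrays, were at or just above the top of the WT range, and Fntb KO 3 to 5 were below all WT arrays. Its difference of -0.20 was -0.43 without the low-median arrays, with limma adjusted p-values of 0.777 and 0.165. Rab7b, Rab9b, Rab34 and Rab42 complete the group.

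The 14 genes of the endoplasmic reticulum, the Golgi and the early secretory pathway had a median difference of -0.0092. Rab1a, needed for transport from the endoplasmic reticulum to the Golgi, averaged 10.03 ± 0.15 in the Fntb KO arrays and 10.14 ± 0.10 in the WT arrays (SD, n = 5 each), a difference of -0.11 with an interval of -0.31 to 0.085. Its relative Rab1b differed by 0.10, and by -0.011 without the low-median arrays. Rab2a, which also acts between these compartments, differed by -0.018 with an interval of -0.21 to 0.17. Rab19 read 6.62, 7.23, 6.57, 6.05 and 6.33 in the Fntb KO arrays 1 to 5, against 6.61, 6.95, 7.15, 6.87 and 6.75 in the WT arrays 1 to 5. Its Fntb KO arrays spread from 6.05 to 7.23, a range that covered all WT arrays, and the difference of -0.31 had an interval of -0.69 to 0.079 (limma adjusted p = 0.669). It was -0.47 without Fntb KO 2, -0.18 without Fntb KO 4 and -0.53 without the low-median arrays (adjusted p = 0.204). Rab33a, a Golgi-associated relative of Rab33b, differed by 0.20 and Rab39b, known from neurons, by -0.31, both from levels below the guide and with limma adjusted p-values of 0.472 and 0.517. Rab39b differed by -0.21 without WT 2 and by -0.12 without the low-median arrays. The other members are Rab2b, Rab6a, Rab6b, Rab18, Rab30, Rab33b, Rab39 and Rab43.

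Of the 9 genes of regulated secretion, Rab27a and Rab3b came closest to a difference. Rab27a docks secretory granules at the plasma membrane and is known for its role in release of lytic granules by cytotoxic lymphocytes. It read 7.72, 8.24, 8.05, 8.01 and 7.82 in the Fntb KO arrays 1 to 5, against 8.10, 8.42, 8.20, 8.17 and 8.14 in the WT arrays 1 to 5. Only Fntb KO 2, a low-median array, reached into the WT range. The difference was -0.24 (95% interval -0.47 to -0.010, limma adjusted p = 0.508), and -0.19 without the low-median arrays.

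Rab3b, an exocytosis GTPase of neurons and endocrine cells, was the 1 member whose groups did not overlap, where 2.67% of all genes had groups that did not. It read 3.48, 3.50, 3.61, 3.53 and 3.77 in the Fntb KO arrays 1 to 5, against 3.27, 3.24, 3.07, 3.07 and 3.47 in the WT arrays 1 to 5. The lowest Fntb KO array stood 0.0053 above the highest WT array, and each value was below the guide of 4.19. The difference was 0.35 (95% interval 0.14 to 0.56, limma adjusted p = 0.151). Rab37, which marks secretory granules, averaged 7.87 ± 0.18 in the Fntb KO arrays and 7.91 ± 0.28 in the WT arrays (SD, n = 5 each), a difference of -0.032 with an interval of -0.32 to 0.25. Rab3d, found on secretory granules, differed by -0.0044 at the guide level, and its other probe set by 0.16. Rab3a, Rab3c, Rab26, Rab27b and Rab44 complete the group.

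The 3 genes of lysosome-related organelles were Rab29, Rab32 and Rab38. Rab29, which acts at the Golgi and in T cells is known for receptor traffic to the immunological synapse, averaged 6.64 ± 0.23 in the Fntb KO arrays and 6.65 ± 0.14 in the WT arrays (SD, n = 5 each), a difference of -0.011 with an interval of -0.26 to 0.24. Rab32, a GTPase of melanosomes and other lysosome-related organelles, differed by -0.35 and its relative Rab38 by -0.17, both from levels below the guide (limma adjusted p = 0.545 and 0.774). Rab32 differed by -0.51 without the low-median arrays and still did not pass (adjusted p = 0.194). The Rab40 genes Rab40b and Rab40c, whose proteins carry a SOCS box that recruits a ubiquitin ligase, differed by 0.12 and -0.0040. Both are named after their values were seen.

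Rab28, a GTPase of cilia and photoreceptors, and Rab23, an inhibitor of Hedgehog signalling, were placed together. Rab28 read 5.25, 5.41, 4.57, 4.70 and 4.75 in the Fntb KO arrays 1 to 5, against 4.26, 5.14, 4.78, 4.55 and 4.64 in the WT arrays 1 to 5. Its highest 3 values were those of the low-median arrays, 2 of Fntb KO and 1 of WT, and the other arrays of both groups shared a range. The difference was 0.26 (95% interval -0.13 to 0.66, limma adjusted p = 0.738). It was 0.12 without the low-median arrays and 0.14 with them as a block.

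**Figure D3:**
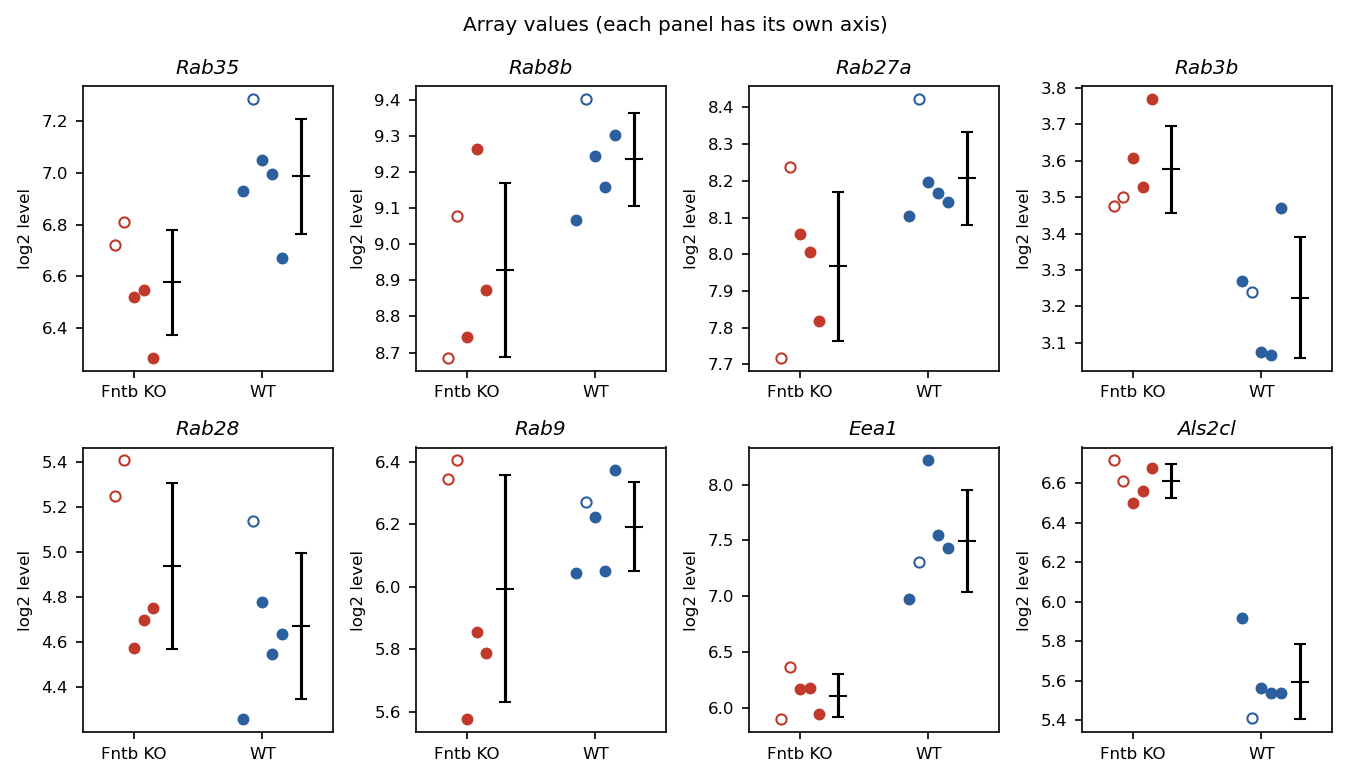
Log2 level in each array, Fntb KO left and WT right, with the mean and SD of the group (n = 5) beside the points; open circles are the 3 low-median arrays, and each panel has its own axis. The groups of Rab35, Rab8b, Rab27a, Rab28 and Rab9 overlap, those of Rab3b are separated by 0.0053, and those of Eea1 and Als2cl stand clearly apart.

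The members varied between arrays of the same genotype about as much as other genes. The median SD within a group was 0.20 in Fntb KO and 0.16 in WT for the Rab genes, against 0.18 and 0.15 for all genes in the same order. The widest Fntb KO spreads were those of Rab23 (SD 0.45), Rab6b (SD 0.44) and Rab19 (SD 0.44); Rab23 and Rab6b are named after their values were seen. Fntb KO 4 was the lowest of the 10 arrays for each of these 3 genes at the probe set used. The other probe set of Rab6b had a Fntb KO SD of 0.16. In 30 of the 57 members the low-median arrays read higher than the other arrays of the same genotype in both groups, in 10 they read lower in both, and 17 were mixed. In WT this rests on WT 2 alone. The same count was not made over all genes, so it cannot be read as a trait of the Rab genes. The median over the 40 members above the guide ran from 6.63 to 7.26 in the Fntb KO arrays and from 7.01 to 7.39 in the WT arrays, with its highest value of each group in Fntb KO 2 and WT 2. Without the low-median arrays 0 members passed, and the median difference of the 57 was -0.045.

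**Figure D4:**
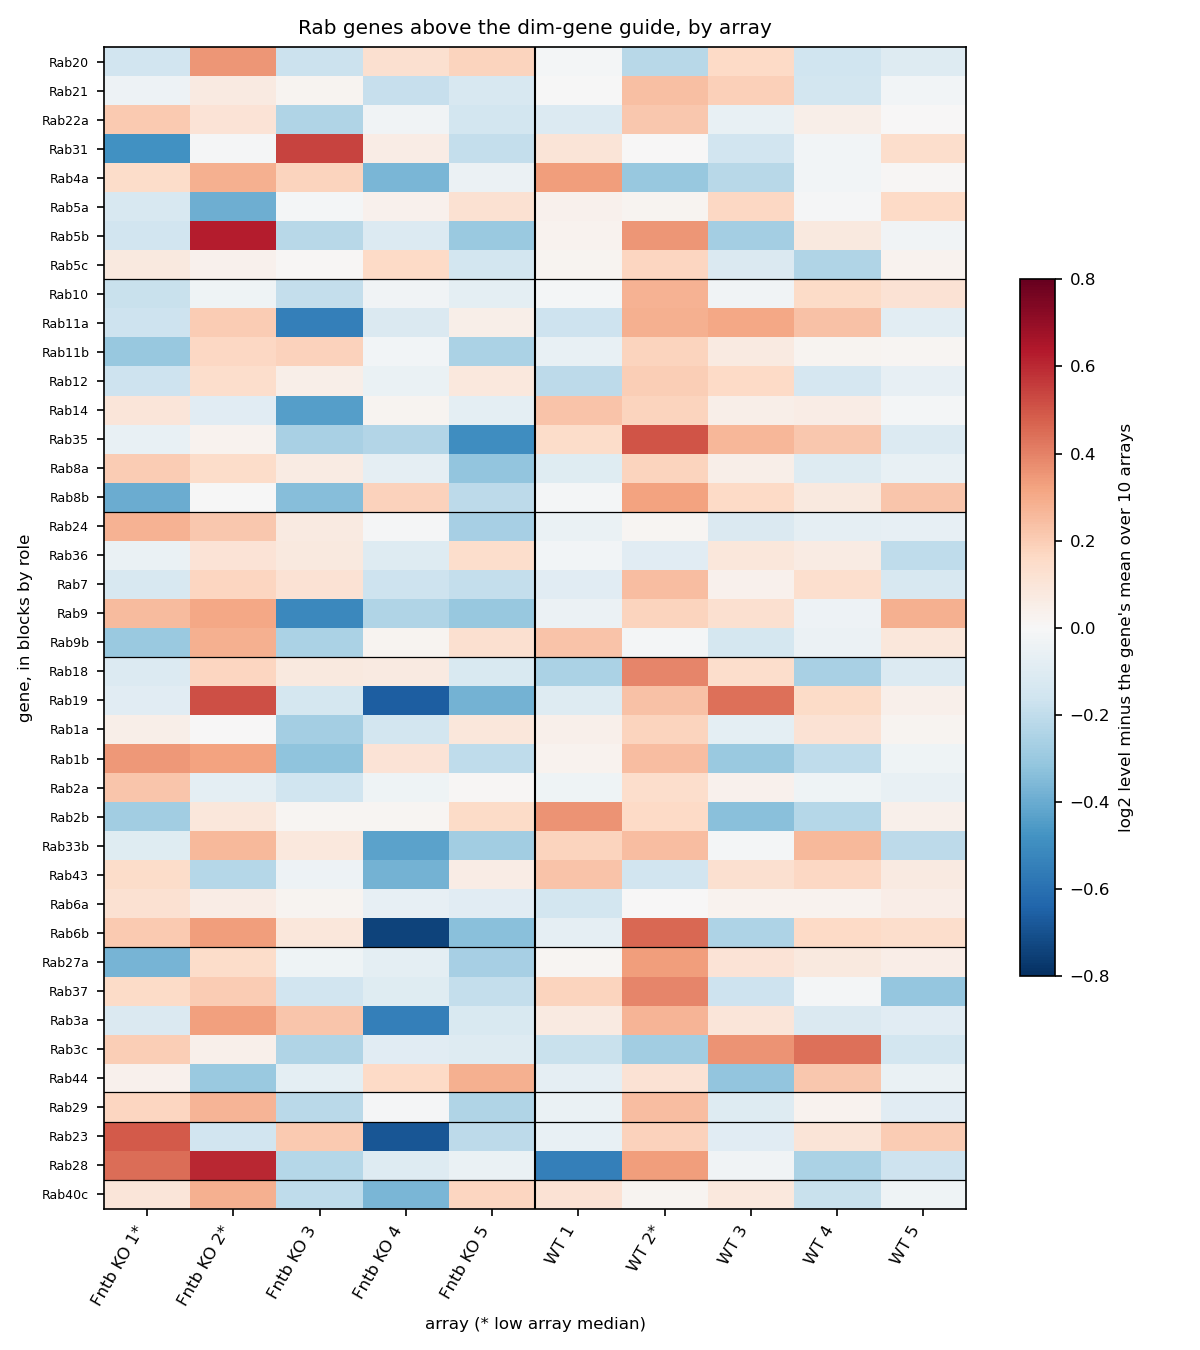
Log2 level of the 40 Rab genes above the dim-gene guide in each array, minus the gene's mean over the 10 arrays, with Fntb KO left and WT right of the line and genes in blocks by role. The asterisks mark the low-median arrays; no block has one colour throughout a genotype, and Rab28 is high in Fntb KO 1, Fntb KO 2 and WT 2.

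The proteins that prenylate, load, unload and read Rabs were followed in lists of 163 measured genes, of which 1 rose (0.302% of all genes tested did) and 1 fell (0.807% did). The gene that fell was Eea1, whose product binds GTP-bound Rab5 and tethers early endosomes before they fuse. Eea1 read 5.90, 6.36, 6.17, 6.18 and 5.95 in the Fntb KO arrays 1 to 5, against 6.98, 7.31, 8.22, 7.55 and 7.43 in the WT arrays 1 to 5. All Fntb KO arrays were below all WT arrays, with a gap of 0.61 between the highest Fntb KO and the lowest WT array. Eea1 was 2.61-fold lower in Fntb KO, a difference of -1.38 (SE 0.183, 95% interval -1.78 to -0.99, limma adjusted p = 0.00222). It passed in each of the 19 alternatives, at differences of -1.51 to -1.20. Some of these could not move its difference, among them the authors' table, whose values are identical, and the runs on averaged or every probe set. Eea1 was 1 of 61 measured effectors, 1 of which fell and 0 of which rose, with a median difference of -0.042.

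Of genes whose products also act with Rab5, the 5 given here did not pass, while Als2cl, described below, did. Rabep1, whose product rabaptin-5 links Rab5 and Rab4, differed by -0.19 (limma adjusted p = 0.546), and Rbsn, whose product rabenosyn-5 acts in recycling, by -0.099 (0.884). Appl1, an effector of Rab5 on signalling endosomes, differed by -0.099 (0.833), and the exchange factors Rabgef1 and Gapvd1 by -0.27 (0.566) and -0.042 (0.933). These 5 genes are named after their values were seen. Rilpl2, a RILP-like protein that binds phosphorylated Rabs, had the next largest difference among effectors at -0.75 (adjusted p = 0.160), and with a block for the low-median arrays it passed (-0.87, adjusted p = 0.0133).

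The gene that rose was Als2cl, whose product is known to bind Rab5. It read 6.72, 6.61, 6.50, 6.56 and 6.68 in the Fntb KO arrays 1 to 5, against 5.92, 5.41, 5.56, 5.54 and 5.54 in the WT arrays 1 to 5. The groups were 0.58 apart, and Als2cl was 2.03-fold higher in Fntb KO (difference 1.02, SE 0.099, limma adjusted p = 0.000173). It was 1 of 50 measured exchange factor genes, and the other 49 did not pass; the list's median difference was -0.033. Hps1, part of the exchange factor of Rab32 and Rab38, differed by 0.32 (adjusted p = 0.434).

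Of 38 measured GAP genes 0 passed, with a median difference of -0.043. At an unadjusted p under 0.05 there were 11 of them (28.9%), 8 lower and 3 higher in Fntb KO, beside 9.26% of all genes and 13.0% of all genes above the guide. The largest difference was that of Tbc1d30, known to act on Rab8, which read 5.63, 5.76, 5.80, 6.32 and 6.11 in the Fntb KO arrays 1 to 5, against 6.28, 6.35, 6.60, 6.62 and 6.54 in the WT arrays 1 to 5. Only Fntb KO 4 reached into the WT range. The difference was -0.56 (SE 0.13, limma adjusted p = 0.0649), and it passed with array weights, with the low-median block and without Fntb KO 4, at -0.57, -0.50 and -0.66. Tbc1d7, a subunit of the TSC complex grouped here by its GAP domain, differed by 0.52 (adjusted p = 0.408). Over all lists, 7 of the 163 genes had groups that did not overlap, beside 2.67% of all genes. Above the guide lay 135 of the 163, and of all 11079 genes above it 444 had such groups.

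The enzyme and carriers that prenylate Rabs did not pass either. Rabggtb, the catalytic subunit of Rab geranylgeranyl transferase, read 6.09, 7.21, 5.51, 6.12 and 6.26 in the Fntb KO arrays 1 to 5, against 5.53, 6.04, 5.21, 5.91 and 5.28 in the WT arrays 1 to 5. The groups overlapped, and Fntb KO 2, a low-median array, stood far above the rest. Its difference was 0.64 (SE 0.257, 95% interval 0.090 to 1.20, limma adjusted p = 0.423). The escort protein gene Chml differed by -0.29 (adjusted p = 0.644), and by -0.57 without the low-median arrays, where it passed (0.0421). Among 7 Rab-like and large Rab-domain GTPase genes 0 passed: Cracr2a, a large Rab GTPase of T cells, differed by 0.21, and Ift27, a Rab-like protein of cilia, by 0.30 (adjusted p = 0.581 and 0.770). In sorted cell populations, fewer cells that express a gene and less of its RNA per cell cannot be told apart, which holds for Eea1 and Als2cl as for the other genes.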

How the data were processed

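Treg cell RNA was measured on 10 one-colour arrays, 5 Fntb KO and 5 WT. The values deposited by the authors are log2 expression values, made with RMA in Affymetrix Expression Console 1.1 per the submitters' processing notes; further settings are not stated there. RMA normalizes by quantiles, so a shift shared by most genes would not show. The authors' table and the series matrix held identical values, each column being 1 array.

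Of 41345 probe sets, 23521 had 1 gene symbol in GEO's platform annotation and were used; 23328 of these matched RefSeq genes of assembly GRCm38.p6 by Entrez identifier, and 0 symbols changed. The highest-mean probe set per gene left 22180 genes, with no filter on dim ones; 7 Rab genes had more than 1 probe set. Fntb KO was compared with WT over all genes in R 4.3.3 and limma 3.58.1 (lmFit, then eBayes, no covariate; statmod 1.5.0 was used for the robust fit), after a test on simulated data. The number of arrays limits the precision.

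The members and lists were chosen with earlier results of these data known. Of 173 list entries 163 were used, 6 having no named probe set and 4 sharing one with other genes. Members named with their values are those that passed or did not overlap, the 6 largest differences each way at or above the median level of all genes and the 3 largest each way below it, the 5 highest levels, and 12 with known T cell roles; from each list, genes that passed and the 2 largest differences. Genes said above to be named after their values were seen lie outside this rule. A planned description of the proteins' C-terminal motifs was not made, because no protein sequences were used here.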

Additional observations from a re-analysis of the deposited data

How the results depend on the processing

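Eea1, Als2cl and Fntb kept their direction and their call in each of the 19 alternatives (another quantile normalization, a filter at the median level of all genes, a robust eBayes with trend, weights for arrays, averaged probe sets of a gene, every probe set, the authors' table, a block for the low-median arrays, a fit without them, and leaving out each of 10 arrays). A fit with that block passed 1 Rab gene, Rab35 (-0.48), and 5 genes of the Rab-cycle lists. Without those arrays 5 list genes passed and 0 Rab genes. Leaving out 1 array at a time gave 0 Rab genes, 2 to 3 list genes, a median Rab difference of -0.060 to 0.00068, and a Fntb difference of -0.68 to -0.59. List genes that passed in some of these fits only were Tbc1d30, Rilpl2, Rab11fip4, Sgsm3, Chml, Tbc1d16 and Evi5. Some alternatives could not turn a sign. The authors' table holds identical values and repeats the fit described, and the level filter and the robust fit change p-values but no difference. Averaged or every probe set move no difference of a gene with 1 probe set, such as Eea1, Als2cl and Rab35. Over all genes, 246 passed in the fit described, 368 with the block and 150 without the low-median arrays. With 1 array left out, the count ran from 127 (without WT 3) to 253 (without WT 1). It was 135 and 153 without WT 4 and WT 5.

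Of the 28 Rab genes named with values by rule, 20 kept their sign in every alternative run for them, though with sizes as different as -0.25 to -0.029 for Rab38, 0.0094 to 0.20 for Rab24, 0.064 to 0.19 for Rab20 and 0.00067 to 0.10 for Rab5c. The other 8 turned sign in at least 1; the signs of the remaining members were not followed in this way. Rab2a was at 0.018 with another quantile normalization. Rab37 was at 0.0021 and Rab3d at 0.016 with array weights. With the mean of probe sets Rab11b was at 0.074, Rab3d at 0.079 and Rab8a at -0.033. Rab8a was at -0.038 with the block, and without the low-median arrays at -0.054, where Rab1b was at -0.011 and Rab4a at -0.10. Leaving out 1 array gave -0.080 to 0.049 for Rab29, -0.075 to 0.019 for Rab2a, -0.11 to 0.063 for Rab37, -0.075 to 0.081 for Rab3d and -0.036 to 0.094 for Rab8a. The cause was not tested. No paired analysis was possible because the labels give no replicate numbers, and the array numbers used here only follow the sample order. Signal limits the 17 dim Rab genes, whose folds can be understated.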
